A study of Mus musculus with 12 samples.

Results

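C4-HD is a mouse mammary carcinoma that grows in BALB/c mice given medroxyprogesterone acetate (MPA), a synthetic progestin released from an implanted pellet. The comparison described here sets tumours without MPA against tumours with it: 2 arrays labelled no MPA against 2 arrays labelled MPA, 4 of the 12 arrays of the study. All 4 tumours were C4-HD carcinomas raised under MPA in BALB/c mice. The MPA tumours still had the progestin, while the no MPA tumours are labelled as saline-treated for 48 h. The labels disagree in a way that touches every value below, because the protocol text names tumours given saline while MPA was still present as the control, whereas saline is assigned to the arrays whose source name is no MPA. The source names were followed. The other 8 arrays are tumours from which the MPA pellet was taken out and which then received mifepristone (MFP), an antagonist of the progesterone and glucocorticoid receptors, at 10 mg/kg/day for 6, 12, 24 or 48 h, with 2 arrays each. Treatment began when tumours reached 50 mm2. No label ties an array to an animal of its own, although the series text calls the replicates independent, so p-values here measure the spread between these samples, which may be technical. Genes were chosen by whether the 2 no MPA arrays both lay above or both below the 2 MPA arrays. Of 18193 genes with a probe set of 1 symbol, 6548 met this rule.

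The progesterone receptor, encoded by Pgr, is a nuclear receptor that binds DNA and recruits coactivators when a progestin occupies it. In the mammary gland it drives the growth of ducts and side branches, partly through secreted factors such as Wnt4 and Tnfsf11 (RANKL). MPA also binds the glucocorticoid and androgen receptors, and progesterone and glucocorticoid receptors share DNA elements and many target genes, including Fkbp5, Zbtb16, Per1, Tsc22d3 and Sgk1. Withdrawal of MPA and blockade by MFP are therefore different manipulations: the first leaves receptors without the synthetic ligand, and the second fills them with an antagonist.

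The arrays hold RNA of formalin-fixed, paraffin-embedded tumours. Each deposited value is a log2 ratio in which the MPA arrays, averaged on the linear scale, are the denominator, so 0 is the MPA level, 1 is a doubling, and the level above background is not known for any gene. The 2 MPA arrays differed from each other more than either differed from a no MPA array. The SD over genes of their difference was 0.571, against 0.478 to 0.545 between an MPA and a no MPA array and 0.436 between the no MPA arrays. The 3'-minus-5' difference of the Actb control probe sets was -0.07 and 0.05 in MPA and -0.09 and 0.14 in no MPA, and that of Gapdh was 0.16 and -0.12 in MPA and -0.05 and 0.04 in no MPA, so neither separated these 2 groups. In MFP 48 h, used below as a second comparison, they were 0.47 and 0.59 for Actb and 0.48 and 0.37 for Gapdh, above every MPA and no MPA array. Markers of other cells and organs also differed there. At an adjusted p of 0.05, 14 of 17 macrophage genes, 16 of 19 fibroblast genes, 8 of 16 endothelial genes and 13 of 17 pancreas genes were higher in MFP 48 h than in no MPA, against 7.49% of all genes, and the median differences of these lists were 2.36, 2.17, 1.28 and 5.66 on the log2 scale. What part these and the 3'-minus-5' differences have in any contrast of MFP 48 h with no MPA was not tested.

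No gene passed limma's test across all genes at an adjusted p of 0.05 (0 of 18193, which is 0% called), and the smallest adjusted p was 0.114. At an unadjusted p of 0.05 there were 1198 genes (6.58%), of which 557 were higher without MPA (3.06%) and 641 lower (3.52%). The 6548 genes without overlap were 36.0% of those tested, 3397 of them higher without MPA (18.7%) and 3151 lower (17.3%). Of these, 278 (1.53%) also differed by at least 1 on the log2 scale, 128 higher (0.704%) and 150 lower (0.824%). An exact permutation test of 2 arrays against 2 cannot give a two-sided p below 0.333, so separation of the 4 arrays is a description and not a test. Quantile normalization of the ratios gave 7 genes past the threshold, all higher without MPA (Lor, Padi2, Pgr, Rapgefl1, Slc5a5, Stat5a and Tnnc1). Leaving out MPA replicate 1 gave 4, with Aspa higher and C5ar1, Ccr1 and Rarres2 lower. Just inside the rule, Pdk4 stood at 0.05 and -0.05 in MPA and at 0.52 and 0.06 in no MPA. Just outside it, Cdkn1c stood at -0.14 and 0.13 in MPA and at 0.31 and 0.12 in no MPA.

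Among the receptors and progestin targets, the progesterone receptor gene stood farthest from MPA relative to its error. Pgr had log2 ratios of -0.17 and 0.15 in MPA and of 1.90 and 2.50 in no MPA. Both no MPA arrays lay well above both MPA arrays, in all 3 of its probe sets. The log2 fold change was 2.21 ± 0.29 (limma's standard error, n = 2 and 2; adjusted p = 0.114), the smallest p of any gene. In tumours given MFP for 48 h, Pgr stood at -0.15 and 0.40, overlapping the MPA arrays, and at 6, 12 and 24 h of MFP it lay between 0.53 and 1.46. The difference between MFP 48 h and no MPA, fitted in the same model, was -2.08 ± 0.29 (adjusted p = 0.00282, 12.5% of genes called in that contrast).

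Stat5a, a transcription factor activated by prolactin that acts with the progesterone receptor in mammary epithelium, had the smallest p among the listed progestin targets of the mammary gland or uterus. It stood at 0.00 and -0.00 in MPA and at 1.33 and 1.75 in no MPA. Both of its probe sets separated the groups, and the log2 fold change was 1.54 ± 0.22 (adjusted p = 0.114). With MFP for 48 h it stood at -0.41 and -0.19, and the difference from no MPA was -1.84 ± 0.22 (adjusted p = 0.00192). Its relative Stat5b was less far from MPA, at 0.01 and -0.01 in MPA and 0.14 and 0.77 in no MPA.

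The 250 bases before the RefSeq start site of Pgr, Stat5a and Sgk1 are shown as examples (GRCm38.p6, plus strand, 5′ to 3′). Sgk1, described further on, was 1 of the 2 searched genes whose window held the hexamer marked below. The table has 2 entries for Stat5a and 6 for Sgk1, and the first of each was used. They lie at chr9:8899583-8899832 for Pgr, chr11:100859406-100859655 for Stat5a and chr10:21881934-21882183 for Sgk1. Capitals mark the hexamer TGTTCT, which is 1 arm of the element bound by progesterone and glucocorticoid receptors.
Pgr: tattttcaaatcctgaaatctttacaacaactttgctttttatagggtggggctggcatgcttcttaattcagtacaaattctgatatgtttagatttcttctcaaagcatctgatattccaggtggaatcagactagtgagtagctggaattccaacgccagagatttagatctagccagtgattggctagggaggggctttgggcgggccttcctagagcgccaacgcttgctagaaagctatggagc
Stat5a: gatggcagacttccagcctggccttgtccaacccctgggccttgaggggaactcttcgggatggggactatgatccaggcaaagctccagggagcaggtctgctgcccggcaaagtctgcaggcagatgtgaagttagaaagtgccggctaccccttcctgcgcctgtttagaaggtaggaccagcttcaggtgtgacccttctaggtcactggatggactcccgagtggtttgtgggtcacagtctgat
Sgk1: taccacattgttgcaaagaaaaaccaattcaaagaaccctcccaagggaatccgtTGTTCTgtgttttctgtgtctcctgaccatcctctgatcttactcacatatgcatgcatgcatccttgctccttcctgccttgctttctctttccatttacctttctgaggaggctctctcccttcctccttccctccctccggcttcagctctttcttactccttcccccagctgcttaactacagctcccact

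Such a window was searched for 64 of the 77 measured progestin targets, shared targets, receptors and co-chaperones. The rest had no entry among the promoter sequences used or lay on a chromosome that was left out. The hexamer TGTTCT, searched on both strands, was in 2 of these 64 (Sgk1, at position -195 from the start site, and Pgrmc1), against 16.1% of 32851 windows of this length. The full palindrome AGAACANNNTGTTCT, which contains the hexamer on both strands, was in 0 of the 64 and in 0.00913% of all windows. The oestrogen response element GGTCANNNTGACC was in 0 of the 64 and in 0.0639% of all, and the STAT element TTCNNNGAA in 3 of the 64 and in 7.02% of all. The Pgr and Stat5a windows held none of these, which says only that the letters are not in these 250 bases.

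Of 32 progestin targets of the mammary gland or uterus that were measured, 8 were higher without MPA in both arrays and 6 were lower, while 18 overlapped. These shares, 25% and 18.8%, were close to the 18.7% and 17.3% of all genes, and the list's median log2 fold change was -0.06 against 0.01 over all genes. The members that differed by at least 1 without overlap were Greb1, described with the oestrogen-responsive genes, Stat5a and Tgfb1, and leaving out no MPA replicate 2 raised that count from 3 to 5. Tgfb1, a secreted growth inhibitor, stood at 0.10 and -0.10 in MPA and 1.24 and 1.15 in no MPA (log2 fold change 1.20 ± 0.37, adjusted p = 0.627). Its other probe set overlapped, with 0.21 and 0.26 in no MPA and a value of 0.34 in an MPA array, and the mean over both gave 0.74. Wnt4, the paracrine branching signal, stood at -0.13 and 0.12 in MPA and at 1.01 and 0.44 in no MPA. Its log2 fold change was 0.73 ± 0.39 (adjusted p = 0.819), and its other probe set overlapped (mean over both 0.48). Gata2, a factor that works with the progesterone receptor in the uterus, had a log2 fold change of 0.62, and the uterine progestin targets Ihh and Hand2 had 0.43 and 0.40.

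The progestin targets that were lower without MPA lay closer to the MPA range. Fgf2, a growth factor, stood at -0.00 and 0.00 in MPA and at -0.22 and -0.98 in no MPA, with a log2 fold change of -0.60 ± 0.38 (adjusted p = 0.845). Birc5, a mitotic inhibitor of apoptosis, had a log2 fold change of -0.48, and Cdkn1b, which encodes the cell cycle inhibitor p27, -0.41. The mucin gene Muc1 and Hsd11b2, which inactivates glucocorticoids, were both at -0.21, and Adamts18, a secreted protease, was at -0.15. Of the 3 Adamts18 probe sets, 1 separated the groups the other way (difference 0.26), and their mean was -0.05. None of these 6 genes was as much as 1 below MPA.

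Some paracrine and cell cycle targets of progestin action in the gland, unlike Wnt4, Birc5 and Cdkn1b, did not separate the groups. Tnfsf11, which encodes RANKL, stood at -0.45 and 0.34 in MPA and at 0.16 and 0.31 in no MPA, so both no MPA arrays lay inside the MPA range (log2 fold change 0.29 ± 0.28, adjusted p = 0.913). Ccnd1, which encodes cyclin D1, had a log2 fold change of -0.03 ± 0.24, with no MPA arrays on either side of MPA at 0.29 and -0.34. Myc stood at 0.05 and -0.05 in MPA and at 0.19 and 0.01 in no MPA (0.10 ± 0.29), whereas with MFP for 48 h it stood at -1.80 and -1.12. The difference of MFP 48 h from no MPA was -1.56 ± 0.29 for Myc (adjusted p = 0.00765). Cited1, a transcriptional coregulator of hormone-responsive mammary cells, spanned -1.19 to 0.64 in MPA and overlapped with -1.65 and -0.94 in no MPA.

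**Figure D1:**
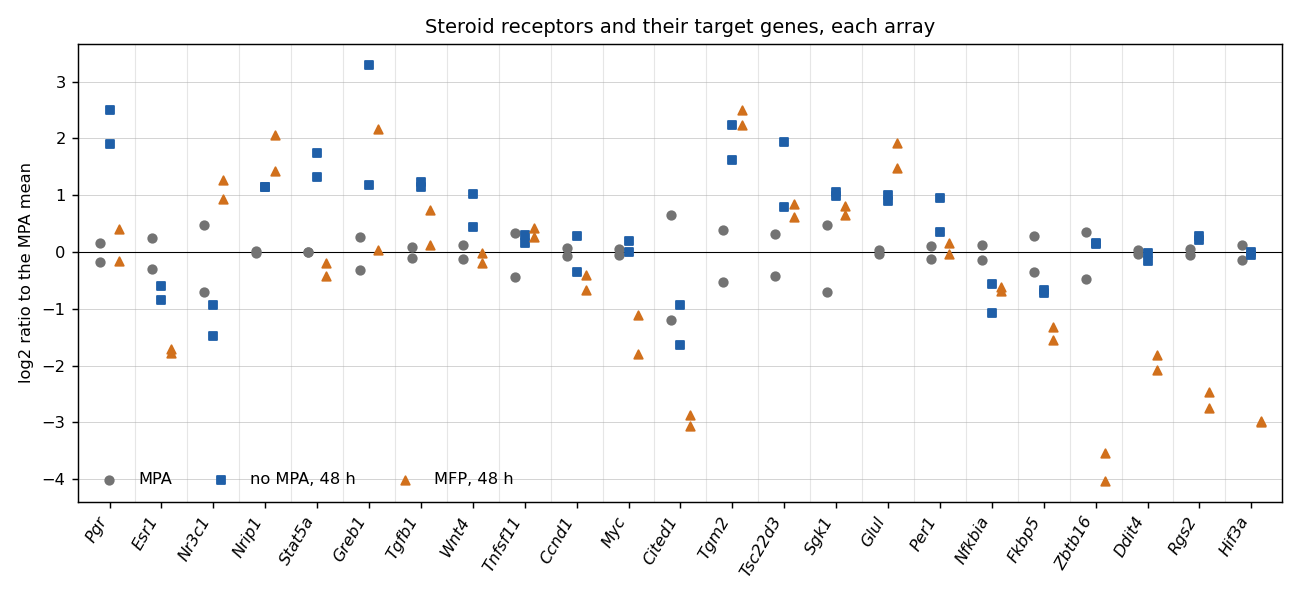
Log2 ratio to the MPA mean (y axis) of steroid receptors and their targets (x axis) in each MPA, no MPA and MFP 48 h array, 1 point per array. Pgr and Stat5a sit at 1.33 or more in both no MPA arrays and at 0.40 or less in all MPA and MFP 48 h arrays, while Zbtb16, Ddit4, Rgs2 and Hif3a sit between -0.15 and 0.28 in no MPA and at -1.81 or less in MFP 48 h.

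Genes that glucocorticoid and progesterone receptors share as targets were more often higher than lower without MPA, but the list's array medians overlapped. These were -0.06 and 0.05 in MPA and 0.16 and -0.03 in no MPA. Of 30 measured, 10 (33.3%, against 18.7% of all genes) were higher in both arrays, 3 (10.0%, against 17.3%) were lower and 17 overlapped, and their median log2 fold change was 0.02. Those at least 1 higher were Tgm2, Tsc22d3 and Sgk1, and leaving out no MPA replicate 2 raised that count from 3 to 5. Tgm2, a transglutaminase that cross-links proteins, stood at -0.54 and 0.39 in MPA and at 1.61 and 2.24 in no MPA. It separated the groups in 5 of 6 probe sets, with a log2 fold change of 2.00 ± 0.33 (adjusted p = 0.180), or 1.32 as the mean over probe sets. Unlike Pgr and Stat5a, Tgm2 was also high with MFP for 48 h, at 2.23 and 2.50, and the difference of MFP 48 h from no MPA was 0.44 ± 0.33 (adjusted p = 0.452).

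Tsc22d3, also known as GILZ, an inhibitor of inflammatory signalling, stood at 0.32 and -0.41 in MPA and at 1.93 and 0.80 in no MPA. Its log2 fold change was 1.41 ± 0.47 (adjusted p = 0.694), and 3 of its 4 probe sets separated the groups, while another gave -0.02 and the mean over all was 0.59. Sgk1, the serum- and glucocorticoid-regulated kinase, stood at -0.70 and 0.47 in MPA and at 1.06 and 0.99 in no MPA (1.14 ± 0.33, adjusted p = 0.571). Both genes are classic targets that glucocorticoids induce, and both lay above the MPA range in both arrays without MPA. Glul, glutamine synthetase, stood at 0.04 and -0.04 in MPA and at 0.90 and 1.0 in no MPA. The clock gene Per1 stood at -0.12 and 0.11 in MPA and at 0.96 and 0.34 in no MPA (0.66 ± 0.23, adjusted p = 0.701). Smaller log2 fold changes without overlap were those of the transcription factors Klf4 (0.76) and Bcl6 (0.50), of Per2 (0.54), of Pdk4 (0.29), which restrains glucose oxidation, and of Rgs2 (0.24), which damps G protein signalling.

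In the opposite direction, Fkbp5, a co-chaperone of steroid receptors, stood at 0.29 and -0.36 in MPA and at -0.73 and -0.67 in no MPA. All 3 of its probe sets were below MPA in both arrays, with a log2 fold change of -0.66 ± 0.26 (adjusted p = 0.725; mean over probe sets -0.41). It was lower still with MFP for 48 h, at -1.56 and -1.32. Nfkbia, the inhibitor of NF-kappaB, stood at 0.13 and -0.14 in MPA and at -0.57 and -1.08 in no MPA (-0.82 ± 0.24, adjusted p = 0.571), in 5 of 5 probe sets. Angptl4, an inhibitor of lipoprotein lipase, had a log2 fold change of -0.42.

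Several shared targets that were far below MPA under MFP were not separated below it without MPA. Zbtb16, a transcription factor strongly induced by glucocorticoids and progestins, stood at 0.35 and -0.47 in MPA and at 0.14 and 0.16 in no MPA (0.21 ± 0.40, adjusted p = 0.970), but at -3.54 and -4.03 with MFP for 48 h. The difference of MFP 48 h from no MPA was -3.93 ± 0.40 (adjusted p = 0.00145). The same contrast gave -2.85 ± 0.20 for Rgs2 (adjusted p = 0.000978), which stood slightly above MPA without it, at 0.28 and 0.21, and at -2.47 and -2.74 with MFP. Ddit4, an inhibitor of mTOR signalling, and Hif3a, a hypoxia-inducible factor, are named after their values were seen. They had log2 fold changes of -0.09 ± 0.25 and -0.02 ± 0.31 without MPA, and differences of MFP 48 h from no MPA of -1.86 ± 0.25 and -2.96 ± 0.31 (adjusted p = 0.00268 and 0.00145). Over the 30 shared targets, 6 were lower and 3 higher in MFP 48 h than in no MPA at an adjusted p of 0.05, against 5.03% and 7.49% of all genes. Comparisons of either condition with MPA use the same 2 MPA arrays, so they are given side by side only. Over all genes, 585 (3.22%) had no MPA and MFP 48 h arrays on opposite sides of the MPA arrays and passed the test of MFP 48 h against no MPA, and 21 of the 94 genes named with values, Stat5a and Rgs2 among them, did so.

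**Figure D2:**
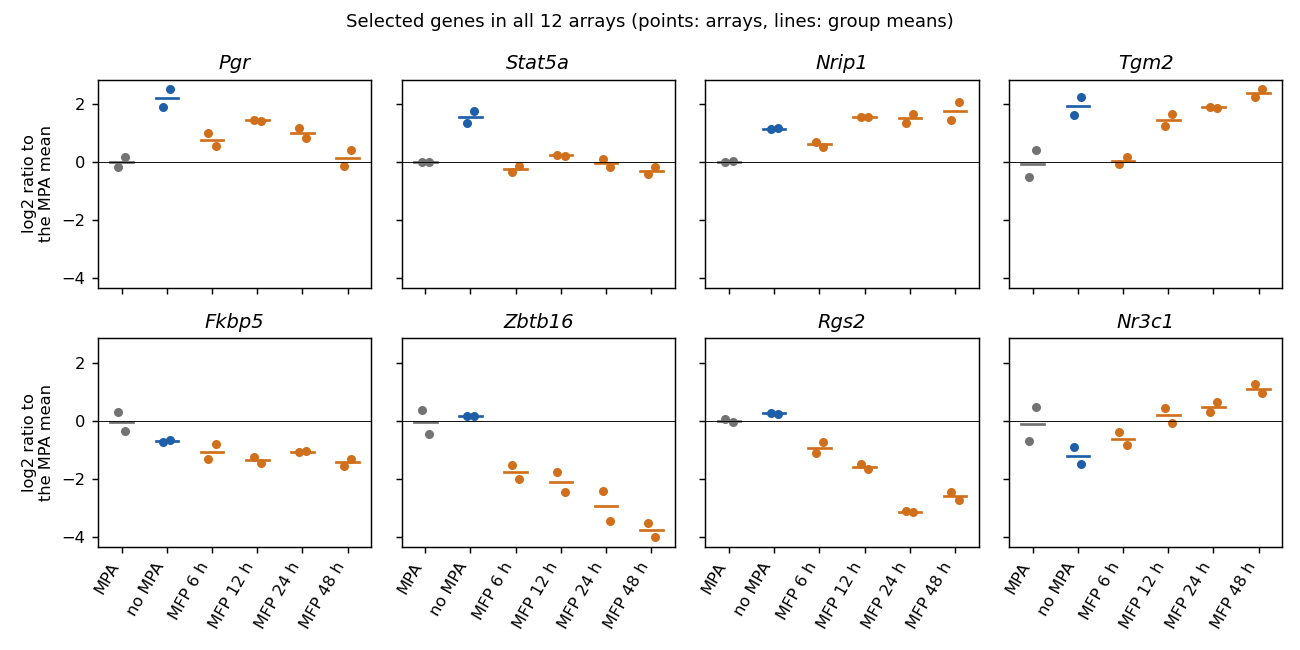
Log2 ratio to the MPA mean (y axis) of 8 receptor and target genes in all 12 arrays (x axis, groups), with 1 point per array and a line at each group mean. Pgr and Stat5a are highest in no MPA, Tgm2 and Nrip1 are high in both no MPA and MFP 48 h, and Zbtb16 and Rgs2 are lowest in the MFP groups.

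Among the receptors and their partners, 6 of 16 measured were higher without MPA in both arrays and 5 were lower (37.5% and 31.2%, against 18.7% and 17.3% of all genes), and 3 of them differed by at least 1. Some of these calls were near-ties. Gata3, Stip1 and Ncoa1 cleared the MPA range upward by only 0.008, 0.015 and 0.016, and Hsp90aa1 downward by only 0.009. Nrip1, a corepressor of nuclear receptors that oestrogen induces, stood at -0.02 and 0.01 in MPA and at 1.14 and 1.15 in no MPA. All 6 of its probe sets separated the groups, and its log2 fold change was 1.15 ± 0.23 (adjusted p = 0.290). It was also high with MFP for 48 h, at 1.43 and 2.07. Fkbp4, a co-chaperone needed for progesterone receptor activity, had a log2 fold change of 0.58, or 0.24 as the mean over probe sets.

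Nr3c1, the glucocorticoid receptor gene, stood at -0.70 and 0.47 in MPA and at -0.93 and -1.49 in no MPA (-1.09 ± 0.38, adjusted p = 0.701). Its probe sets disagreed, with 3 of 6 lower without MPA, 1 higher and the rest overlapping, and their mean was -0.36. With MFP for 48 h it stood at 1.27 and 0.94, above no MPA by 2.31 ± 0.38 (adjusted p = 0.00511). Esr1, the oestrogen receptor gene, stood at 0.24 and -0.29 in MPA and at -0.85 and -0.59 in no MPA (-0.70 ± 0.24, adjusted p = 0.700), but only 1 of its 3 probe sets separated the groups another gave a difference of 0.05, and the mean was -0.24.

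Genes known to respond to oestrogen, among them Pgr itself, were higher in 8 of 19 cases (42.1%, against 18.7% of all genes) and lower in 2 (10.5%, against 17.3%), with a median log2 fold change of 0.11. The list's array medians were 0.03 and -0.03 in MPA and 0.42 and -0.00 in no MPA, so no MPA replicate 2 lay inside the MPA range. Greb1, a cofactor of the oestrogen receptor, stood at 0.26 and -0.32 in MPA and at 1.19 and 3.30 in no MPA (2.27 ± 0.91, adjusted p = 0.737), so that the no MPA arrays were farther from each other than the lower of them was from MPA. Only 2 of its 4 probe sets separated the groups, and their mean difference over all 4 was 1.0. Stc2, a secreted glycoprotein, stood at -0.42 and 0.33 in MPA and at 1.10 and 2.24 in no MPA (1.72 ± 0.39, adjusted p = 0.410). Bcl2, an inhibitor of apoptosis, went the other way, at 0.33 and -0.43 in MPA and at -2.08 and -2.26 in no MPA (-2.12 ± 0.66, adjusted p = 0.638), although another of its probe sets gave 0.01 and the mean over all was -0.63. Of 10 androgen-responsive genes, 2 were higher and 2 lower, led by the protease gene Tmprss2 at -0.01 and 0.01 in MPA and 1.95 and 0.93 in no MPA (1.44 ± 0.44, in 4 of 4 probe sets).

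Over all genes, the 12 with the smallest p among those higher without MPA were Pgr, Lor, Stat5a, Aspa, Slc5a5, Rab27b, Ctns, Tnnc1, Tgm2, Gng12, Gadd45a and Btbd3. None passed the threshold; their adjusted p ranged from 0.114 to 0.183 and their log2 fold changes from 1.23 to 3.11. Of these, 8 have several probe sets, and in 7 of the 8 every probe set separated the groups. Slc5a5, the sodium-iodide symporter, which lactating mammary gland uses to move iodide into milk, stood at -0.24 and 0.21 in MPA and at 2.37 and 3.53 in no MPA. Aspa, which cleaves N-acetylaspartate, stood at 0.52 and -0.82 in MPA and at 2.38 and 3.27 in no MPA. Gadd45a, a stress-induced growth arrest gene, stood at 0.37 and -0.49 in MPA and at 2.59 and 3.26 in no MPA. Ctns, the lysosomal cystine transporter, had a log2 fold change of 2.73 ± 0.42 and Rab27b, a GTPase of secretory vesicles, of 1.66 ± 0.25 (mean over probe sets 1.0).

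The 12 lower genes with the smallest p were Retnla, Naip6, E2f7, Enpp3, Fgg, Ccl6, Il1rap, Xpc, Cyp27a1, Erap1, Aplnr and Rexo5, with adjusted p from 0.114 to 0.317 and log2 fold changes from -2.94 to -1.0. These rest on less: 7 have several probe sets, and every probe set separated the groups in only 1 of the 7. With the lowest-numbered probe set the differences of Aplnr, Cyp27a1, Enpp3 and Il1rap changed sign, and as means over probe sets they came to -0.44, -0.81, -0.52 and -0.19, with Rexo5 at -0.46. Retnla, a secreted product of alternatively activated macrophages, stood at -0.12 and 0.11 in MPA and at -2.19 and -3.14 in no MPA (-2.66 ± 0.36, adjusted p = 0.114). Ccl6, a chemokine of myeloid cells, stood at -0.77 and 0.50 in MPA, at -3.64 and -2.51 in no MPA, and at 2.29 and 2.35 with MFP for 48 h. E2f7, a repressor of cell cycle genes, stood at 0.09 and -0.09 in MPA and at -1.22 and -1.20 in no MPA. Xpc, which recognises DNA damage, had a log2 fold change of -1.08 ± 0.21.

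**Figure D3:**
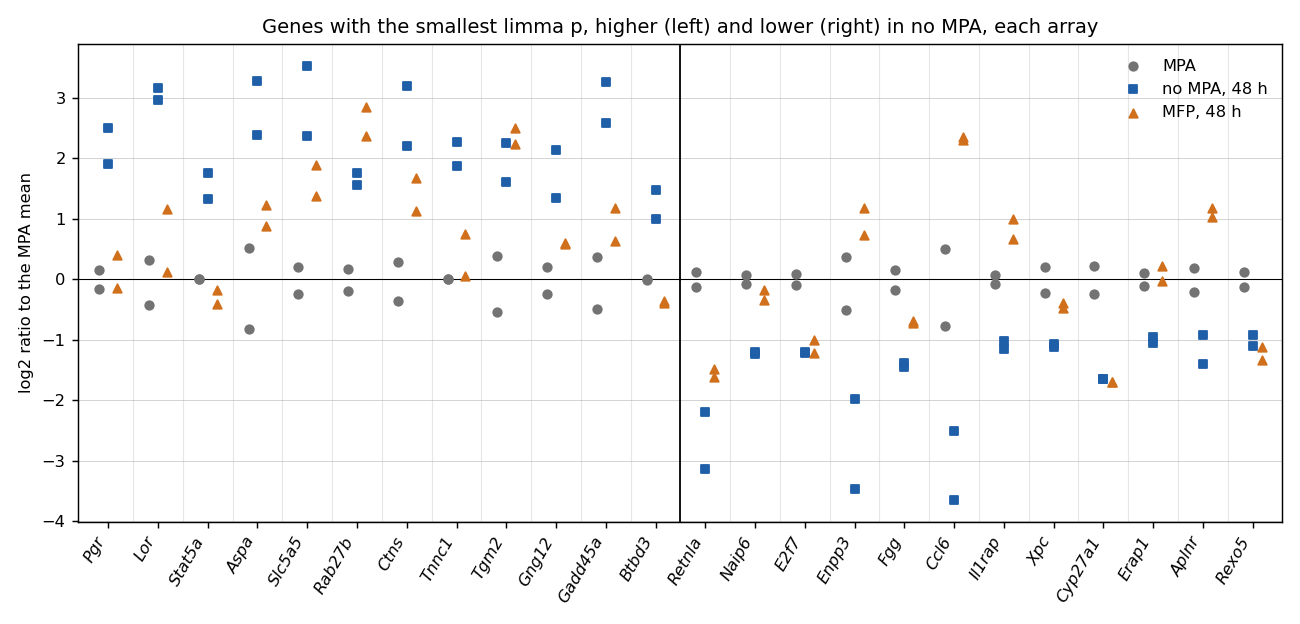
Log2 ratio to the MPA mean (y axis) of the 12 genes higher (left) and 12 genes lower (right) without MPA that had the smallest limma p, 1 point per array of MPA, no MPA and MFP 48 h. No gene shown passed the threshold, and Ccl6 is lowest in no MPA and highest in MFP 48 h.

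Cell cycle genes were more often lower than higher without MPA, by small amounts. Of 29 DNA replication genes, 11 (37.9%) were lower in both arrays and 2 (6.90%) higher, and of 28 mitosis genes, 9 (32.1%) were lower and 1 (3.57%) higher, against 17.3% lower and 18.7% higher of all genes. Their median log2 fold changes were -0.20 and -0.24, and the array medians of both lists overlapped between the groups. For replication genes these were -0.16 and 0.14 in MPA and -0.12 and -0.37 in no MPA. For mitosis genes they were -0.10 and 0.09 in MPA and -0.40 and -0.05 in no MPA. Prim1, the DNA primase, stood at -0.26 and 0.22 in MPA and at -0.80 and -0.75 in no MPA, and Aurkb, a mitotic kinase, at -0.11 and 0.10 in MPA and -0.84 and -0.40 in no MPA. The proliferation marker Mki67 stood at -0.05 and 0.05 in MPA and at -0.32 and -0.17 in no MPA (-0.24 ± 0.40, adjusted p = 0.965). Mad2l1, a spindle checkpoint gene, was the 1 mitosis gene that was higher, at 0.42 and 2.09 in no MPA. In MFP 48 h, 13 of the 28 mitosis genes and 6 of the 29 replication genes were lower than in no MPA at an adjusted p of 0.05, against 5.03% of all genes, with a difference of -2.06 ± 0.21 for Aurkb (adjusted p = 0.00145) and of -1.51 ± 0.40 for Mki67 (adjusted p = 0.0338).

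Genes of cholesterol and fatty acid synthesis had the highest share of lower members among the lists, 11 of 17 (64.7%, against 17.3% of all genes), with 3 higher (17.6%, against 18.7%) and a median log2 fold change of -0.26. Insig1, a sterol sensor of the endoplasmic reticulum, stood at 0.32 and -0.42 in MPA and at -1.54 and -1.46 in no MPA (-1.45 ± 0.34, adjusted p = 0.413). Idi1, isopentenyl diphosphate isomerase, stood at 0.23 and -0.28 in MPA and at -1.73 and -1.11 in no MPA. Fdft1, squalene synthase, stood at 0.00 and -0.00 in MPA and at -1.12 and -0.97 in no MPA. Its 4 probe sets disagreed, with 2 lower, 1 higher (difference 0.19) and 1 overlapping, and their mean was -0.33. The 3 members counted as higher were Sqle (0.40), squalene epoxidase, which acts right after squalene synthase in the sterol pathway, and the fatty acid genes Scd2 (0.85), a desaturase, and Acaca (0.29), acetyl-CoA carboxylase. The other probe set of Acaca was lower without MPA in both arrays (difference -0.21), so its mean was 0.04, and the mean of Scd2 was 0.51. In MFP 48 h, 7 of the 17 were lower than in no MPA at an adjusted p of 0.05, against 5.03% of all genes, among them Idi1 (-2.06 ± 0.43, adjusted p = 0.0133) but not Insig1 (-0.02 ± 0.34).

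The remaining programmes were mixed, and their counts stand against 18.7% higher and 17.3% lower of all genes. Immediate early genes were higher in 5 of 20 cases and lower in 1, led by Zfp36, which destabilises inflammatory mRNAs, at -0.08 and 0.07 in MPA and 1.15 and 0.89 in no MPA. Fosb stood at 4.39 and 0.61 in no MPA, so its log2 fold change of 2.54 ± 0.94 comes mostly from 1 array. Milk and secretory genes were higher in 4 of 16 cases and lower in 2, growth factors and their receptors in 9 and 3 of 28, and circadian clock genes in 6 and 2 of 17. G1 cyclins and inhibitors (2 and 2 of 15), apoptosis and p53 targets (4 and 3 of 19), heat shock genes (2 and 2 of 12) and ribosome biogenesis genes (4 and 3 of 16) were about even. Unfolded protein response genes were higher in 4 of 16 and lower in 0, antigen presentation genes in 5 and 1 of 14, interferon-stimulated genes in 1 and 5 of 14, hypoxia and glycolysis genes in 0 and 3 of 15, and involution and STAT3 genes in 1 and 3 of 22.

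**Figure D4:**
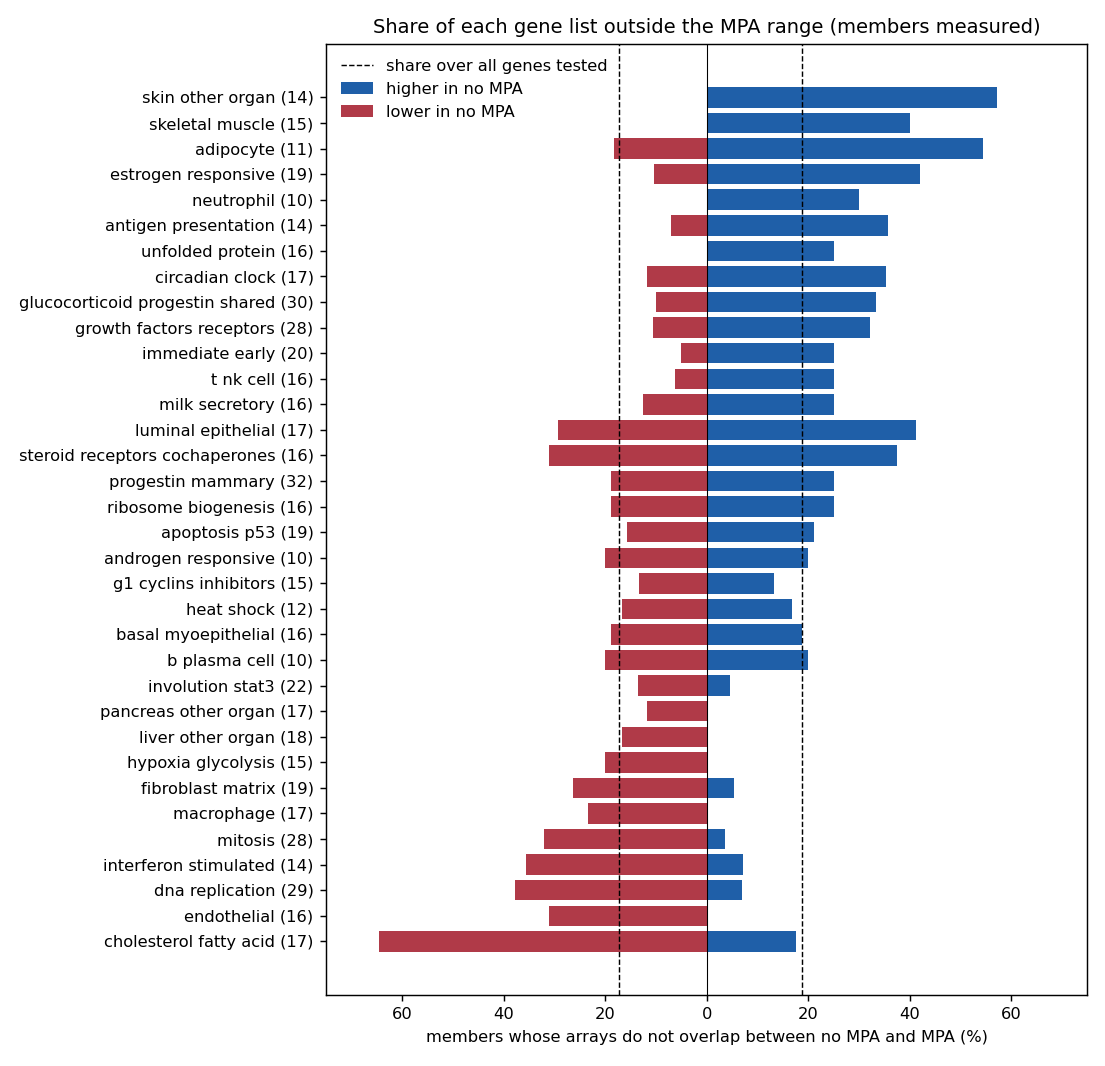
Share of each gene list's measured members (x axis, %) whose no MPA arrays both lay above (right) or both below (left) the MPA arrays, with dashed lines at the 18.7% and 17.3% of all genes. Cholesterol and fatty acid synthesis reaches 64.7% lower, and the skin list reaches 57.1% higher.

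The labelled tissue was checked against its markers and against those of other cells and organs. In bulk tumours, fewer cells of a type and less RNA per cell cannot be told apart. Luminal epithelial genes were higher in 7 of 17 cases and lower in 5 (41.2% and 29.4%, against 18.7% and 17.3% of all genes), with a median log2 fold change of 0.30. The luminal keratin gene Krt8 stood at 0.02 and -0.02 in MPA and at 1.28 and 0.48 in no MPA (0.88 ± 0.26, adjusted p = 0.601), with Krt19 at 0.93 ± 0.37, while Cldn7, a tight junction gene, was at -0.39. Myoepithelial genes were higher in 3 of 16 cases and lower in 3.

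Stromal and myeloid lists had few members that separated the groups. The counts of higher and lower members were 0 and 5 of 16 for endothelial genes, 1 and 5 of 19 for fibroblast and matrix genes and 0 and 4 of 17 for macrophage genes. The lower shares, 31.2%, 26.3% and 23.5%, compare with 17.3% of all genes. Col3a1, a fibrillar collagen gene, stood at -1.16 and 0.63 in MPA and at -1.37 and -1.65 in no MPA (-1.25 ± 0.52, adjusted p = 0.739; mean over probe sets -0.81). Mrc1, the macrophage mannose receptor gene, stood at -1.0 and 0.59 in MPA and at -2.01 and -1.30 in no MPA (-1.45 ± 0.59, adjusted p = 0.737). For both genes the MPA arrays were farther apart than the lower MPA array was from the nearer no MPA array. The same held for whole lists: the median over macrophage genes was -0.83 and 0.53 in MPA and -0.34 and -0.32 in no MPA, and that over fibroblast genes -0.91 and 0.55 in MPA and -0.69 and -0.46 in no MPA. In both lists MPA replicate 1 lay below both no MPA arrays and MPA replicate 2 above them. Their part in the differences of Retnla and Ccl6 was not tested. Lymphoid and granulocyte lists were higher and lower in 4 and 1 of 16 cases for T and NK cells, 2 and 2 of 10 for B and plasma cells, and 3 and 0 of 10 for neutrophils. The higher shares, 25%, 20% and 30%, compare with 18.7% of all genes, and the lower shares, 6.25%, 20% and 0%, with 17.3%.

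Genes of neighbouring tissue also varied. Skin genes were higher in 8 of 14 cases (57.1%, against 18.7% of all genes) and lower in 0, and Lor, which encodes the cornified envelope protein loricrin, stood at 0.32 and -0.42 in MPA and at 3.16 and 2.97 in no MPA (3.11 ± 0.42, adjusted p = 0.114, in 3 of 3 probe sets with a mean of 1.71). Ivl, involucrin of the same envelope, had a log2 fold change of 1.25 ± 0.39. The list's array medians were 0.13 and -0.14 in MPA and 0.35 and 0.20 in no MPA. Skeletal muscle genes were higher in 6 of 15 cases and lower in 0, and Tnnc1, the troponin C of slow muscle, stood at 0.00 in both MPA arrays and at 1.87 and 2.27 in no MPA. Adipocyte genes were higher in 6 of 11 cases and lower in 2. Liver genes had array medians of 0.89 and -2.77 in MPA and of -1.93 and -2.04 in no MPA, which overlap, with 0 higher and 3 lower of 18, and pancreas genes were higher in 0 and lower in 2 of 17. Of all genes, 18.7% were higher and 17.3% lower. What part skin or muscle in the samples has in the differences of Lor and Tnnc1 was not tested.

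**Figure D5:**
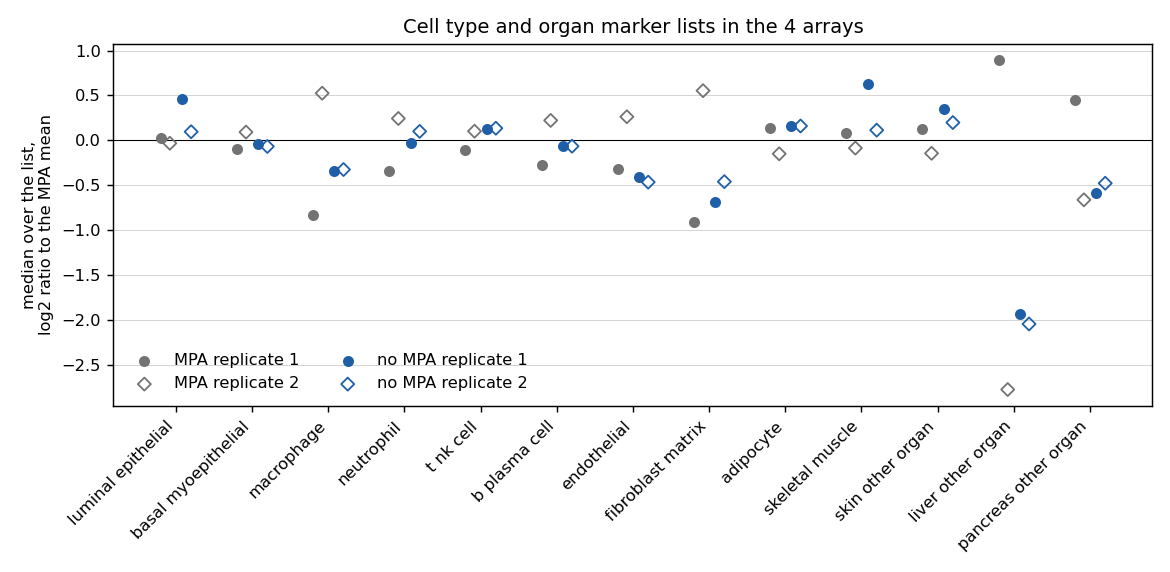
Median over each marker list (x axis) of the log2 ratio to the MPA mean (y axis) in the 2 MPA and 2 no MPA arrays, 1 point per array. The MPA arrays lie on either side of the no MPA arrays for macrophage, fibroblast and liver genes, while both skin medians without MPA, 0.35 and 0.20, lie above both with it.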

How the data were processed

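Expression was measured on 12 Affymetrix mouse genome arrays, of which 4 enter the comparison. The authors deposited log2 values made with GCRMA, per the submitters' processing notes (version not given in the sources used here). In 45099 of 45101 probe sets, both MPA values, taken out of log2, have a mean of 1 (tolerance 1e-04), so the deposited log2 values are ratios to MPA. This fixes the MPA columns around 0 and narrows them (SD 0.255 and 0.267, against 0.390 and 0.411 in no MPA), and it removes the level. The number of arrays limits the precision.

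Probe sets with 1 symbol in the platform annotation were used (34945; 932 have several symbols, 9160 none and 64 are controls). Each gene was represented by its most variable probe set (SD over the 12 arrays), a rule that includes group differences, for 18193 genes, 9010 of them with several probe sets. A means model of 6 groups was fitted to all arrays with limma 3.58.1 in R 4.3.3 (6 residual degrees of freedom, 4.21 prior), with Benjamini-Hochberg adjustment over all genes and a threshold of 0.05. The fit was tested on simulated data with independent normal noise at each gene's residual spread and 200 changed genes in each of 10 runs. It recovered 26% of changes of 1 on the log2 scale and 81.2% of changes of 2, and 5.53% of its calls were false. These rates hold for the simulated noise only. In the data, genes shifted together, with macrophage medians of -0.83 and 0.53 in the MPA arrays, which the simulation left out. MFP 48 h against no MPA is a contrast of the same fit.

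Genes were named by rule: members of both progestin lists without overlap and a set of receptors and classic targets, the 12 genes of smallest p in each direction, and up to 3 members of each other list in each direction. The members and the 34 gene lists were chosen with earlier results of these data known. Of 595 listed genes, 39 were not analysed here. Alternatives were other scalings, other probe set rules, other fits, filters and leaving out each array.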

Additional observations from a re-analysis of the deposited data

Results flagged for a closer look

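For 21 of the 94 genes named with values, the no MPA arrays lay on one side of the MPA arrays and the MFP 48 h arrays on the other, and limma's test of MFP 48 h against no MPA, a contrast without the MPA arrays, passed the threshold. Over all genes 585 did so (3.22%). The named genes were partly chosen for their values in these arrays, so the counts are a description. Lower in MFP 48 h than in no MPA, as log2 differences, were Stat5a (-1.84), Btbd3 (-1.61), Klf4 (-1.69), Rgs2 (-2.85), Stc2 (-2.76), Mad2l1 (-1.49), Scd2 (-1.63), Sqle (-1.91) and Acaca (-1.71), whose other probe set lay below MPA in no MPA as well. Higher in MFP 48 h were Enpp3 (3.68), Nr3c1 (2.31), Aplnr (2.26), Fgf2 (2.05), Il1rap (1.92), the collagen gene Col3a1 (3.28) and the myeloid genes Ccl6 (5.40), Mrc1 (3.26), F13a1 (4.01), Ccl12 (4.37), Ccl9 (3.61) and Pf4 (4.37). The macrophage list was higher in MFP 48 h by a median of 2.36 and the fibroblast list by 2.17, and their part in these differences was not tested. None of these 21 genes passed the threshold between no MPA and MPA. The sides were read from 1 probe set per gene. As means over probe sets, no MPA minus MPA came to -0.52 for Enpp3, -0.36 for Nr3c1, -0.44 for Aplnr and -0.19 for Il1rap. Another Il1rap probe set lay above MPA in both groups, at 0.30 and 0.42 in no MPA and 0.80 and 1.44 in MFP 48 h.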

How the results depend on the processing

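No paired analysis was possible because the labels carry no replicate numbers. The count of genes past the threshold moved from 0 to 7 with quantile normalization (Pgr 3.35, Stat5a 2.26, Lor 4.29, Slc5a5 4.64 and Tnnc1 3.16 among them), which by construction widens the narrower MPA columns, and to 4 without MPA replicate 1 (Aspa 3.64, a log2 fold change as are all values here); leaving out each array in turn gave 0 to 4. The count without overlap was 11594 to 13399 with 1 array left in a group, where separation is easier to meet. The count that also differed by at least 1 was 551 with quantile normalization (57.4% higher, against 46.0%), 143 with the mean over probe sets (57.3% higher), 185 for genes whose MPA arrays differ by less than 1, and 523 to 865 with an array left out.
Median centring, the 4 arrays alone, robust moderation, array weights, the other probe set rules and the omission of other-organ genes gave 0 genes past the threshold. Of the 94 genes named with values, 82 kept the sign of their log2 fold change under every setting that gave a value (15 settings in all), and the cause was not tested for the 12 that did not. With the lowest-numbered probe set, Aplnr came to 0.26, Bcl2 0.010, Cyp27a1 0.021, Enpp3 0.41, Esr1 0.049, Il1rap 0.36, Zbtb16 -0.11, Hif3a 0.10 and Ms4a2 -0.14. Without probe sets that can match several transcripts, Aplnr came to 0.26, Cyp27a1 0.021 and Tsc22d3 -0.024. With probe sets chosen on the MFP arrays, Cyp27a1 came to 0.021 and Zbtb16 to -0.11, and with the mean over probe sets Hif3a came to 0.15. With an array left out, the ranges that span 0 were -0.11 to 0.68 for Tnfsf11, -0.34 to 0.29 for Ccnd1, -0.20 to 0.62 for Zbtb16 and -0.15 to 0.11 for Hif3a. The mean over probe sets moved 30 of the 94 genes by over 1.5 times, 27 of them toward 0. Signal over background is not known for ratios, so low and high genes could not be separated.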

Other observations

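Genes of mast cells, chosen after their values were seen, were higher without MPA in both arrays in 6 of 7 cases, against 18.7% of all genes. That count may follow from the choice and is no result about mast cells as a set. Log2 fold changes were 1.09 ± 0.50 for the tryptase gene Tpsab1, 1.16 ± 0.53 for the carboxypeptidase gene Cpa3, 1.18 ± 0.68 for the chymase gene Mcpt4, 1.15 ± 0.42 and 0.95 ± 0.51 for the IgE receptor subunits Ms4a2 and Fcer1a, and 0.43 ± 0.39 for Kit. Hdc, the histamine-forming enzyme, was lower at -0.83 ± 0.35. None passed limma's threshold, and Ms4a2 had an adjusted p of 0.709. As means over probe sets, Ms4a2 came to 0.51 and Hdc to -0.46. Myeloid genes chosen in the same way were lower without MPA in both arrays, as were 17.3% of all genes. The macrophage list as a whole did not separate no MPA from MPA, with 4 of 17 genes lower. Its array medians were -0.83 and 0.53 in MPA and -0.34 and -0.32 in no MPA. The chosen myeloid genes were F13a1 (-1.84 ± 0.47), Ccl12 (-1.60 ± 0.51), Ccl9 (-1.31 ± 0.34, mean over probe sets -0.89), Pf4 (-1.15 ± 0.62) and Rnase2a (-1.89 ± 0.70). Of these, F13a1, Ccl12, Ccl9 and Pf4 were higher in MFP 48 h than in no MPA, by 4.01, 4.37, 3.61 and 4.37 on the log2 scale (adjusted p = 0.00192, 0.00192, 0.00145 and 0.00290). The macrophage list as a whole was higher there by a median of 2.36, with 14 of 17 genes past the threshold, the fibroblast list by 2.17 and the pancreas list by 5.66, and their part was not tested. The MPA arrays differed widely for all 5 myeloid genes, at -1.08 and 0.61 for F13a1, -1.04 and 0.60 for Ccl12, -1.09 and 0.61 for Pf4, and -0.61 and 0.43 for Ccl9. Rnase2a stood at 0.75 and -1.66 in MPA and at -2.53 and -2.16 in no MPA.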
